A study of Homo sapiens with 12 samples.

Results

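The ATP-binding cassette (ABC) family was followed over 2 versions of the established human glioblastoma line U87 and 3 treatments. Its members were the protein-coding genes of the deposited expression table whose symbol is ABC, a letter from A to G and a number, a rule that used no measured value. It found 45 of 57773 genes, and 35 of the 45 were abundant enough to be tested, among 19093 genes tested in all. The 6 groups were parental U87 cells and a U87 derivative labelled as having acquired resistance to JQ1, each kept for 24 h with DMSO (the solvent control), 1000 nM JQ1 or 1000 nM dBET6. Each group had 2 polyA RNA libraries, 12 in all. The resistant cells are represented by a single derivative line, and the labels do not say how it was selected or whether it was held in JQ1 before the experiment. Nothing in the labels ties the replicates to distinct cultures, so the spread behind the p-values may be technical.

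ABC proteins share nucleotide-binding domains that bind and hydrolyse ATP, and most couple this to moving a substrate across a membrane. Subfamilies A to D and G are membrane transporters for drugs and conjugates, cholesterol and phospholipids, fatty acyl-CoA, vitamin B12, peptides and heme-related compounds, or regulators of potassium channels, whereas ABCE1 and the ABCF proteins have no membrane span and work on the ribosome. Drug efflux by ABCB1, ABCG2 and the ABCC proteins is the best known route by which cells lower their content of a foreign compound, and ABCA1 and ABCG1 carry cholesterol out of cells under the control of the liver X receptors (LXR). BET proteins read acetylated lysines of chromatin and promote transcription. JQ1 occupies their acetyl-lysine binding sites, and dBET6 is a degrader in which a related BET ligand is tethered to a cereblon binder, so that BET proteins are marked for degradation.

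The libraries held 23447581 to 38753621 estimated counts assigned to genes, and the members took 0.141% to 0.153% of them in the 8 DMSO and JQ1 libraries and 0.0792% to 0.0856% in the 4 dBET6 libraries. The dBET6 libraries stood apart in other ways too. Mitochondrially encoded mRNA took between 3.19% and 3.94% of counts there and between 1.46% and 2.70% elsewhere, and the top 50 genes took 25.8% to 31.0%, compared with 12.4% to 18.5%. Changes are therefore given relative to the median gene (TMM scaling, in log2 fold change), with 2 other scales beside them. Scaling to total counts moved the median change of all genes with dBET6 to -0.65 in parental and -1.14 in resistant cells, and scaling to the 13 mitochondrially encoded mRNAs moved it to -1.78 and -2.12. In bulk RNA, fewer cells with a transcript and less of it per cell cannot be told apart. The label of the line was checked on marker genes: 8 of 8 mesenchymal glioblastoma markers were above 1 FPKM (fragments per kilobase of transcript, scaled to library size) in every library, and of 7 astrocyte markers GJA1, SLC1A3 and GFAP were. The summed level of those 7 was 46.1 to 70.1 FPKM with DMSO, 27.7 to 34.7 with JQ1 and 9.42 to 15.7 with dBET6, GFAP itself lay at 1.58 to 6.39 FPKM, and AQP4 was at most 0.419 FPKM. Of 6 neuron markers, GAD1 and SNAP25 were above 1 FPKM in every library, and the list summed to 12.6 to 23.2 FPKM. The oligodendrocyte, endothelial and epithelial lists summed to at most 6.999, 2.91 and 7.91 FPKM. Of the myeloid markers, PTPRC, AIF1 and TYROBP stayed under 1 FPKM in all libraries, while the summed level of all 7 was 409 to 850.1 FPKM with dBET6 and 180.0 to 258 FPKM otherwise, mostly CD68, a lysosomal protein. ITGAM reached 4.72 to 7.17 FPKM and CD14 0.868 to 6.14 FPKM in the dBET6 libraries. The part of these features in the results was not tested.

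Of the 45 members, 22 were above 1 FPKM in every library, 9 in some libraries and 14 in none. ABCB8, a transporter of the mitochondrial inner membrane, had the highest median level over the 12 libraries, 60.9 FPKM (lowest 42.1, highest 96.8). ABCF2 (53.7 FPKM), ABCF3 (41.9), ABCF1 (29.8), ABCA1 (26.3), ABCE1 (22.7) and ABCC1 (20.7) followed, with ranges over the libraries that overlap between neighbours in that order. Among the drug transporters of the line ABCC1, the multidrug resistance protein MRP1, was the most abundant by median, before ABCC5 (13.2 FPKM), ABCC3 (11.5), ABCC2 (9.43), ABCC4 (8.28), ABCC10 (5.75) and ABCG2 (3.85). ABCB1, the P-glycoprotein that defines classical multidrug resistance, was at 0 in 4 libraries and reached no more than 0.167 FPKM. All 12 libraries together held 10 estimated counts of it, 0 in resistant DMSO, so no change of ABCB1 was detectable at this depth. The other 9 untested members (ABCA10, ABCA12, ABCB4, ABCB5, ABCB11, ABCC8, ABCC12, ABCD2 and ABCG5) lay at or below 0.364 FPKM in every library.

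**Figure D1:**
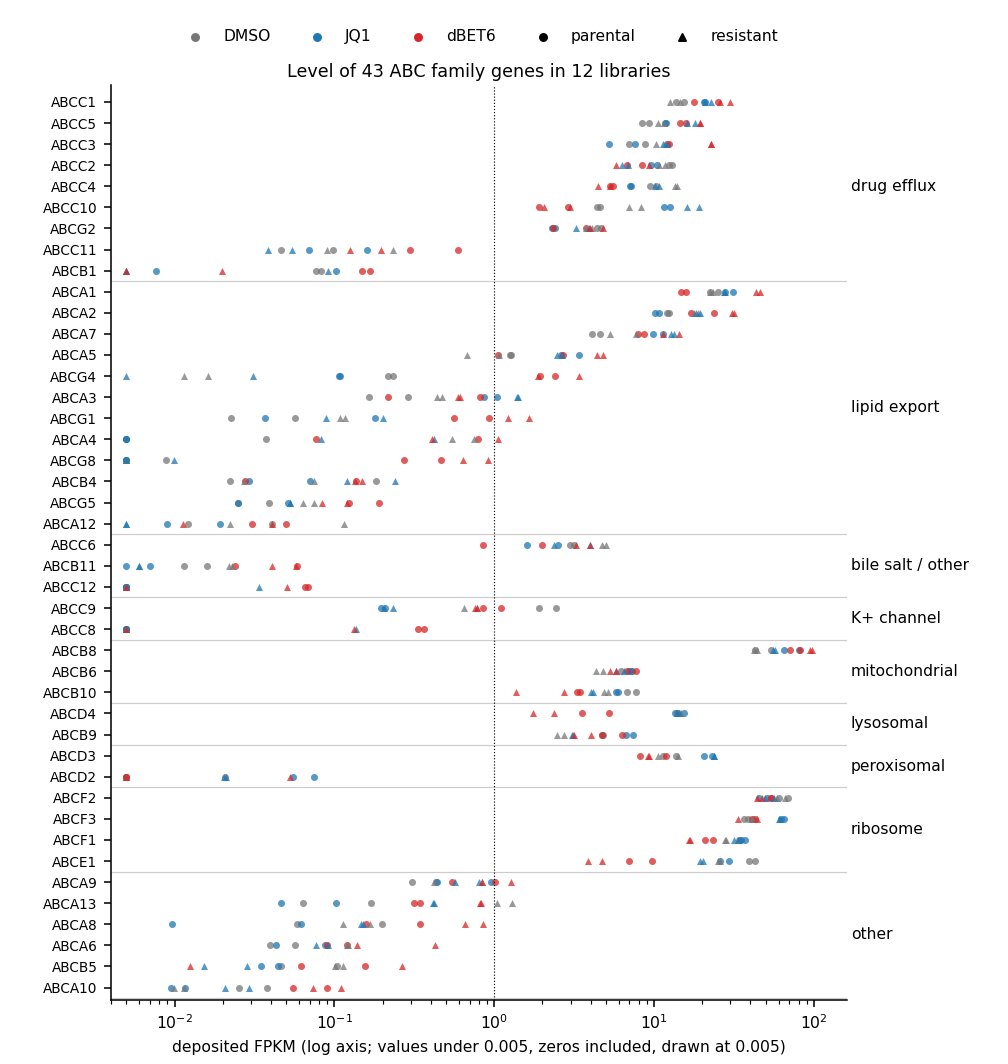
Deposited FPKM (x axis, log scale) of 43 ABC family genes (y axis, grouped by role) in each of 12 libraries. Circles are parental and triangles resistant libraries, coloured by treatment. Of the genes drawn, 20 lie above 1 FPKM (dotted line) in every library, and ABCB1 stays at or below 0.167 FPKM.

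Under JQ1 in parental cells, transcripts of the lipid transporters ABCA3 and ABCA7 and the drug transporter ABCC10 rose, while those of the potassium channel regulator ABCC9, the drug transporters ABCG2 and ABCC4 and the ribosome recycling factor ABCE1 fell. Of the 35 tested members, 21 passed an adjusted p of 0.05 (11 higher, 10 lower), against 48.9% of all tested genes (22.8% higher, 26.1% lower). Their median log2 fold change was 0.22, beside 0.01 over all genes. In the resistant line 18 members passed (13 higher, 5 lower), against 43.9% of all genes (20.8% and 23.1%), with a median of 0.20 beside 0.01. All 11 members that rose in parental cells also rose in resistant cells, where they were 84.6% of the risers, and ABCB6 and ABCF1 were the other 2. The 5 that fell in resistant cells (ABCC9, ABCA13, ABCC2, ABCG2 and ABCF2) were among the 10 that fell in parental cells. No such overlap between the lines was computed over all genes. Scaled to mitochondrial mRNA, the split of calls changed from 11 higher and 10 lower to 5 and 10 in parental cells, and from 13 and 5 to 5 and 11 in resistant cells. On that scale 21.4% and 6.67% of all called genes were higher.

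Under dBET6, ABCE1, the lysosomal vitamin B12 transporter ABCD4, the drug transporters ABCC4, ABCC10 and ABCC2 and the mitochondrial transporter ABCB10 fell in both lines, and the cholesterol transporter ABCG1 rose from a low level in both. In parental cells 27 of 35 members passed the threshold (14 higher, 13 lower), against 76.3% of all tested genes (37.0% higher, 39.3% lower), with a median of 0.23 beside -0.01. In resistant cells 26 passed (16 higher, 10 lower), against 75.2% (35.7% and 39.5%), with a median of 0.35 beside -0.06. These counts are close to the share of all genes. Of the members that rose, 12 did so in both lines (85.7% of the parental and 75% of the resistant risers), and of those that fell, 9 did (69.2% and 90.0%). The overlap over all genes was not computed, so these shares are no result about the family, and ABCG4, ABCG8 and ABCA8 are among the 12. ABCA1 and ABCA5 fell in parental and rose in resistant cells. The parental fall of ABCA5 was not called with DESeq2. Its deposited FPKM did not show it, with 1.28 and 1.25 in parental DMSO and 1.05 and 2.69 with dBET6. Both other scales move dBET6 changes downward, so the falls had to keep their sign there (13 of 13 and 10 of 10), which is no support for them. Only 3 of 14 rises in parental and 4 of 16 in resistant cells kept theirs, so a rise with dBET6 mostly means a rise relative to the median gene. Those that did were ABCG1, ABCG4 and ABCG8 in both lines and ABCA8 in resistant cells, all of them near silent in DMSO. The filter asked for 0.31 CPM, before TMM scaling, in at least 2 libraries, and ABCG4, ABCG8 and ABCA8 would not have met it without dBET6 libraries, so they were tested because they were high there and their rises are no support. ABCA4 met it with 1 resistant DMSO and 1 resistant dBET6 library. Without these 4 members the counts were 11 higher and 13 lower of 31 in parental and 13 and 10 in resistant cells. On the total-count scale the split of all members was 6 higher and 19 lower in parental and 6 and 21 in resistant cells, where 30.6% and 22.5% of all called genes were higher. On the mitochondrial scale it was 3 and 28, and 3 and 29, beside 11.4% and 8.94%. The members were thus near the share of all genes on these scales too. The dBET6 splits of the lists below on these scales stand beside the same shares.

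**Figure D2:**
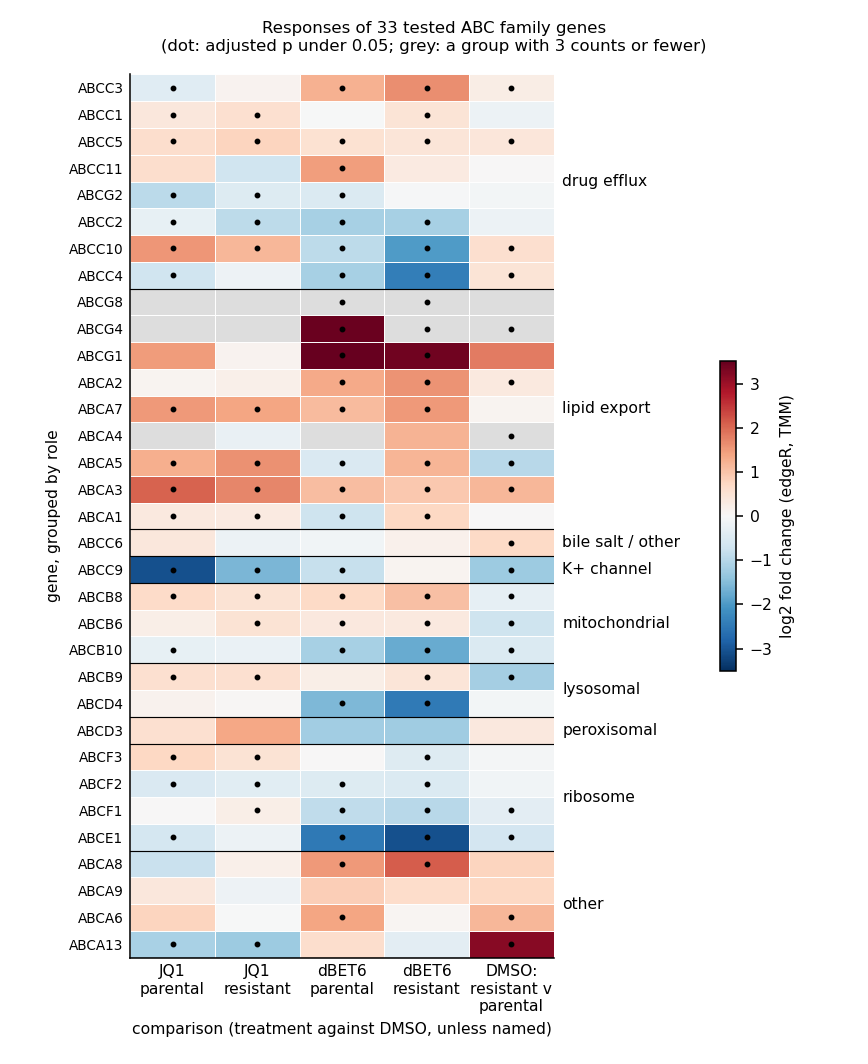
Log2 fold changes (colour, edgeR with TMM scaling, clipped at 3.5) of 33 tested members (rows, by role) in 5 comparisons (columns). Dots mark an adjusted p under 0.05 and grey cells a group with 3 counts or fewer. ABCE1 and ABCD4 are blue in both dBET6 columns, ABCA1 and ABCA5 change colour between those columns (the resistant rise of ABCA1 turns negative on the total-count scale, and both turn negative on the mitochondrial scale), and ABCC10 is red with JQ1 and blue with dBET6. The parental dBET6 fall of ABCA5 was not called with DESeq2 and not shown by the deposited FPKM.

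Of the 9 members listed as drug transporters, 8 were tested. With JQ1 3 rose and 4 fell in parental cells, and 3 rose and 2 fell in resistant cells, where 48.9% and 43.9% of all genes passed. With dBET6 3 rose and 4 fell in parental, and 3 rose and 3 fell in resistant cells, against 76.3% and 75.2% of all genes. On the total-count scale the dBET6 splits were 1 higher and 5 lower, and 1 and 6, and on the mitochondrial scale none was higher and 7 were lower in each line. Of 23 genes of xenobiotic sensing and conjugation, 20 were tested, and with dBET6 11 rose and 6 fell in parental and 10 rose and 5 fell in resistant cells, against 76.3% and 75.2% of all genes. These splits were 6 higher and 9 lower, and 6 and 10, on the total-count scale and 2 and 15 in each line on the mitochondrial scale. Among them were the quinone reductase NQO1 (2.42 and 2.5) and KEAP1, the inhibitor of NRF2 (-1.61 and -2.78).

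ABCC10 (MRP7), an exporter of taxanes and other lipophilic drugs, answered the compounds in opposite directions. Its transcript stood at 13.3 and 13.8 CPM (TMM-scaled counts relative to library size) in the parental DMSO libraries, 42.7 and 36 with JQ1 and 7.85 and 6.58 with dBET6. In the resistant line the values were 20.1 and 20.7 with DMSO, 43.9 and 46.9 with JQ1 and 5.43 and 4.99 with dBET6. The JQ1 libraries were the highest and the dBET6 libraries the lowest in each line, with no overlap between treatments. JQ1 raised it in parental (log2 fold change 1.54, SE 0.10, adjusted p = 1.72e-12) and resistant cells (log2 fold change 1.16, SE 0.10, adjusted p = 3.33e-10). dBET6 lowered it in parental (log2 fold change -0.90, SE 0.12, adjusted p = 2.10e-07) and more so in resistant cells (log2 fold change -1.97, SE 0.13, adjusted p = 1.78e-13). The JQ1 rises stayed positive on every scale, and the dBET6 falls, which the other scales shift downward, stayed negative. At the matched dose of 1000 nM, dBET6 lay below JQ1 by a log2 difference of -2.45 (SE 0.12) in parental and -3.13 (SE 0.13) in resistant cells. These 2 were the largest falls of any member with dBET6 against JQ1. The deposited FPKM showed the same order, 4.57 and 4.41 in parental DMSO, 12.6 and 11.6 with JQ1 and 1.9 and 2.9 with dBET6.

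ABCC4 (MRP4), which exports cyclic nucleotides, prostaglandins and nucleotide analogues, fell with dBET6 in parental (log2 fold change -1.15, SE 0.14, adjusted p = 7.86e-07) and resistant cells (log2 fold change -2.41, SE 0.16, adjusted p = 8.61e-11). Its CPM were 37.4 and 29 in parental DMSO, 20.2 and 21.1 with JQ1 and 16.1 and 13.8 with dBET6, and 50.7 and 42, 41.3 and 40.8 and 7.21 and 10.2 in the resistant line. JQ1 lowered it in parental cells (log2 fold change -0.69, SE 0.13, adjusted p = 2.99e-04), and in resistant cells the JQ1 libraries lay just under the DMSO libraries without passing the test (-0.18, adjusted p = 0.291). About 0.641 of its deposited FPKM was recovered from the transcripts paired with it, so its CPM cover part of its transcripts. The FPKM were lower with dBET6 as well, from 10.3 and 9.39 to 5.27 and 5.54 in parental and from 13.9 and 13.5 to 4.48 and 5.27 in resistant cells. With JQ1 they were 7.06 and 7.18 in parental and 10.7 and 10.2 in resistant cells, below both DMSO libraries in each line.

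ABCC2 (MRP2), an exporter of glutathione and glucuronide conjugates, was lower with both compounds in both lines. It went from 59 and 55.8 CPM in parental DMSO to 48.3 and 45.3 with JQ1 and 25.6 and 26 with dBET6, and from 50.7 and 48.5 to 25.7 and 26.7 and 23.2 and 20.8 in the resistant line. The JQ1 fall was larger in the resistant (-0.92, SE 0.09) than in the parental line (-0.30, SE 0.09), with a tested difference of -0.63 (SE 0.12, adjusted p = 0.00162). The parental JQ1 call was lost without the second parental JQ1 library (log2 fold changes over single left-out libraries -0.35 to -0.26). With dBET6 the falls were -1.15 and -1.17, and their difference of -0.02 had a 95% interval of -0.29 to 0.25.

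ABCC3 (MRP3), a basolateral exporter of glucuronides and bile salts, moved the other way. Its level was 16.7 and 19.9 CPM in parental DMSO and 45.2 and 40.7 with dBET6, and 21.8 and 22.3 and 68.1 and 68.7 in the resistant line. These are rises of 1.23 (SE 0.11, adjusted p = 3.21e-11) and 1.63 (SE 0.10, adjusted p = 5.27e-14), which kept their sign on the total-count scale (0.59 and 0.56) and turned negative on the mitochondrial scale (-0.55 and -0.43). JQ1 lowered ABCC3 in parental cells (log2 fold change -0.44, SE 0.11, adjusted p = 0.00137), a call lost without the second parental JQ1 library (-0.61 to -0.30 over left-out libraries), and did not pass the test in resistant cells (24.1 and 23.7 CPM, log2 fold change 0.11, adjusted p = 0.408).

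ABCC1 and ABCC5, the drug transporters with the highest median FPKM over the 12 libraries, rose modestly with JQ1. In parental DMSO ABCC2 (12.8 and 12.3 FPKM) and ABCC4 (10.3 and 9.39) lay above ABCC5 (9.33 and 8.43). In resistant DMSO ABCC4 (13.9 and 13.5) did (ABCC5 10.6 and 11.5). ABCC1, which exports glutathione conjugates and many anticancer drugs, went from 70.4 and 73.2 to 98.6 and 90.2 CPM in parental (log2 fold change 0.39, SE 0.09, adjusted p = 6.38e-04) and from 60.2 and 64.3 to 92.6 and 91.1 CPM in resistant cells (log2 fold change 0.56, SE 0.09, adjusted p = 1.02e-05), the latter not on the mitochondrial scale (-0.01). With dBET6 it was at 78 and 63.8 CPM in parental cells (-0.02, adjusted p = 0.874) and rose to 86.1 and 88.5 CPM in resistant cells (log2 fold change 0.49, SE 0.09, adjusted p = 3.11e-05), a change that was -0.59 on the total-count scale and -1.57 on the mitochondrial scale. In the deposited FPKM the parental dBET6 change was instead 0.51 on the log2(FPKM + 1) scale (limma, adjusted p = 0.0112), from 15.3 and 13.7 to 25 and 17.8 FPKM. The transcripts paired with ABCC1 recovered 0.940 of its deposited FPKM. ABCC5 (MRP5), a nucleotide exporter, rose with JQ1 from 28.2 and 27.3 to 44.6 and 40 CPM in parental (0.61, SE 0.09) and from 36.8 and 38 to 66.8 and 61.3 CPM in resistant cells (0.77, SE 0.09). Its dBET6 rises of 0.53 and 0.44 were -0.11 and -0.63 on the total-count scale and -1.24 and -1.62 on the mitochondrial scale.

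ABCG2, the breast cancer resistance protein, fell with JQ1 in both lines. The libraries gave 8.97 and 8.29 CPM in parental DMSO, 3.82 and 5.19 with JQ1 and 6.14 and 5.96 with dBET6, and 7.99 and 8.32, 5.71 and 5.94 and 7.14 and 8.6 in the resistant line. The JQ1 change was -0.95 in parental (SE 0.15, adjusted p = 5.79e-06) and -0.48 in resistant cells (SE 0.14, adjusted p = 0.00738), the second lost without the second DMSO or the first JQ1 library of that line (-0.53 to -0.46). The parental dBET6 fall was smaller (-0.51, SE 0.15, adjusted p = 0.00387, and 0.085 with DESeq2), and in resistant cells the DMSO and dBET6 libraries overlapped (-0.05, adjusted p = 0.794). ABCC11 (MRP8) was near the lower limit in all libraries, at most 0.596 FPKM, with a parental dBET6 rise (1.46, adjusted p = 0.0141) that was lost without the second parental DMSO or the second dBET6 library (0.99 to 2.0) and turned to -0.28 on the mitochondrial scale.

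**Figure D3:**
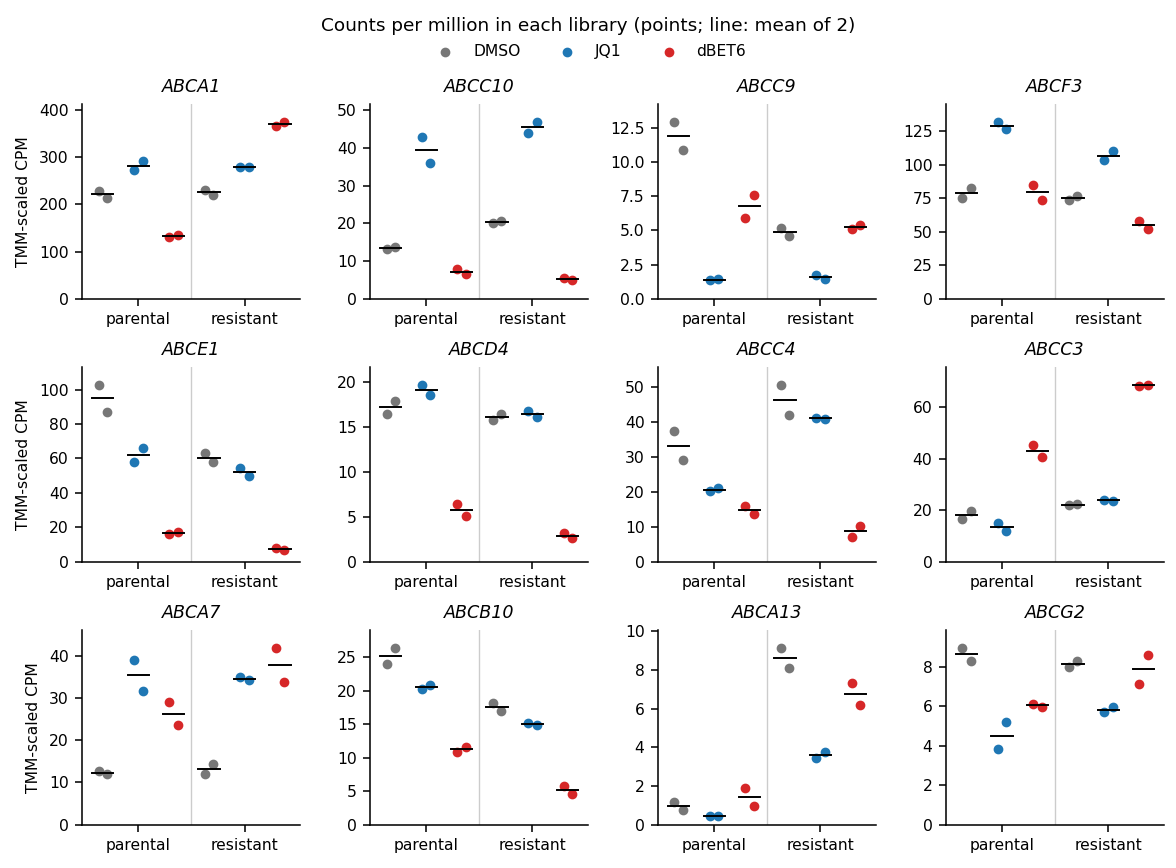
TMM-scaled CPM (y axis, from 0) of 12 members in each library, by line and treatment (x axis). Points are libraries and black lines the means of 2. ABCC10 is highest with JQ1 and lowest with dBET6 in both lines, ABCE1 and ABCD4 are lowest with dBET6, and the ABCA1 points with dBET6 are the lowest of the parental and the highest of the resistant line, where the rise turns negative on the total-count and mitochondrial scales.

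Among the exporters of cholesterol and phospholipid, 9 of 12 members were tested. With JQ1 4 rose and none fell in parental cells (ABCA1, ABCA3, ABCA5 and ABCA7), and the same 4 rose in resistant cells, against 22.8% and 20.8% of all genes higher. With dBET6 6 rose and 2 fell in parental cells (against 37.0% and 39.3% of all genes), and 8 rose and none fell in resistant cells (against 35.7% and 39.5%). ABCG4 and ABCG8 are among these rises in both lines, but they were tested only through their dBET6 libraries, so their rises are no support. Apart from them, ABCA2, ABCA3, ABCA7 and ABCG1 rose in both lines, and ABCA1 and ABCA5 in resistant cells. With ABCG4 and ABCG8 counted, the splits were 5 higher and 2 lower, and 5 and 1, on the total-count scale. On the mitochondrial scale they were 3 higher and 5 lower in each line, ABCG4 and ABCG8 among the higher, with the rises of ABCA2, ABCA3 and ABCA7 turned negative in both. ABCA1 and ABCA5 fell in parental and rose in resistant cells, where the rise of ABCA1 turned negative on the total-count scale and both on the mitochondrial scale. The parental fall of ABCA5 was not called with DESeq2 and not shown by the deposited FPKM. ABCA1 was the more abundant of the pair.

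ABCA1 loads cholesterol and phospholipid onto apolipoprotein A-I at the plasma membrane, and its gene lies on the minus strand of chromosome 9 (GRCh38, 104781002 to 104928237). Its level was 229 and 214 CPM in parental DMSO, 272 and 293 with JQ1 and 131 and 135 with dBET6. In the resistant line it was 230.4 and 221 with DMSO, 278 and 278 with JQ1 and 365 and 375 with dBET6. The DMSO libraries of the lines overlapped (0.03, 95% interval -0.14 to 0.19), the JQ1 libraries lay above them in both lines, and the dBET6 libraries were the lowest of the parental and the highest of the resistant line. dBET6 lowered ABCA1 in parental cells (log2 fold change -0.74, SE 0.08, adjusted p = 6.52e-09) and raised it in resistant cells (log2 fold change 0.71, SE 0.08, adjusted p = 8.67e-09). The difference between the lines was 1.45 (SE 0.12, adjusted p = 6.38e-10). It stayed positive on every scale, at 1.01 on the total-count and 1.14 on the mitochondrial scale, whereas the resistant rise itself became -0.36 and -1.36. The deposited FPKM gave the same pattern, 25 and 22.4, 27.9 and 31.1 and 15.8 and 14.8 in parental and 23.4 and 22.3, 27.5 and 27.9 and 43.5 and 45.7 in resistant cells. JQ1 raised ABCA1 by 0.35 (SE 0.08) in parental and 0.30 (SE 0.08) in resistant cells, the latter lost without the second resistant DMSO library (0.27 to 0.33) and at -0.28 on the mitochondrial scale.

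The 250 bases before the start that RefSeq annotates are shown for 3 members: ABCA1, whose dBET6 response had opposite signs in the lines, ABCC10, whose response had opposite signs between the compounds, and ABCE1, which fell most with dBET6 against DMSO. They are RefSeq sequences of build GRCh38.p14, written 5′ to 3′ along the gene, at chr9:104928156-104928405 (minus strand), chr6:43427613-43427862 (plus strand) and chr4:145098061-145098310 (plus strand). In GENCODE 29 some transcripts start further upstream, so these starts lie 82, 497 and 379 bases inside the annotated genes of ABCA1, ABCC10 and ABCE1, and the ABCC10 and ABCE1 stretches lie within the genes. Capitals mark matches, on either strand, to 8 motifs that were chosen after these sequences were seen.
ABCA1: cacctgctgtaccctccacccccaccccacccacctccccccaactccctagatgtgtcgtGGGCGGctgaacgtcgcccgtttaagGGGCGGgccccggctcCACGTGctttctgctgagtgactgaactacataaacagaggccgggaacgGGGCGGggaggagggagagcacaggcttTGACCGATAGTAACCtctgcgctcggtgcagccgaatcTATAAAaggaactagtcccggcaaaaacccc
ABCC10: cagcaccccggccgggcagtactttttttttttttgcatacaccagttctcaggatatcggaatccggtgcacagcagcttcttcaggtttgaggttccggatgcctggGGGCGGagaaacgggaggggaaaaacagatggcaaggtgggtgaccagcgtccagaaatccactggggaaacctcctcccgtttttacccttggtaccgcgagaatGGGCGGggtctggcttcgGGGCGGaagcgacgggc
ABCE1: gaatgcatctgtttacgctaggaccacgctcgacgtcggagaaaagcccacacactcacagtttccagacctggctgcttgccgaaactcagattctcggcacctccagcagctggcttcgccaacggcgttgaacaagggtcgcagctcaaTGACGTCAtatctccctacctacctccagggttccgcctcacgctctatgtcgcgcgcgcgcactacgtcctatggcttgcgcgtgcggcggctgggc

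In the ABCA1 sequence the capitals mark 3 GC boxes, whose letters are GGGCGG. They also mark CACGTG, known as an E-box. Nearest to the start lies TATAAA, the core promoter element, and on the opposite strand there is a DR4 repeat, a pair of half-sites of the kind to which LXR binds. A match of the last kind was present in 1 of the 35 member promoters matched in the RefSeq table (2.86%) and in 0.220% of all 27305 promoters of the same length. The ABCC10 sequence holds 3 GC boxes, a motif found in 51.4% of member promoters and 42.3% of all promoters, and the ABCE1 sequence holds a cAMP response element (TGACGTCA, 2.86% and 1.77%). E-boxes were in 11.4% of member promoters (6.49% of all), CCAAT in 17.1% (33.0%), TATAAA in 14.3% (11.1%), the antioxidant response core TGACNNNGC in 17.1% (11%) and the AP-1 letters TGACTCA in none (4.16%). The median promoter of a member had 16 CpG dinucleotides and 61.6% G and C, against 11 and 58.0% over all promoters. A match describes letters only. The only member matches to the DR4 repeat and the cAMP response element are those of ABCA1 and ABCE1 shown here. Because the motifs were chosen after these sequences were seen, their shares are no result about the family.

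The partners of ABCA1 in cholesterol efflux and LXR signalling were read from a list of 14 genes, 13 of them tested. With dBET6, 6 rose and 5 fell in parental cells (median 0.17, beside -0.01 for all genes), and 8 rose and 3 fell in resistant cells (median 0.77, beside -0.06), against 76.3% and 75.2% of all genes called. On the mitochondrial scale 2 were higher and 10 lower, and 1 and 9. APOE, the lipid carrier that accepts cholesterol from ABCA1, rose by 2.69 in parental and 3.82 in resistant cells, more than the shift of any scale. PLTP, the phospholipid transfer protein (1.35 and 2.03), NPC2, which passes cholesterol out of lysosomes (1.32 and 1.92), and the HDL receptor SCARB1 (1.30 and 1.42) rose as well, by less than the shift of the mitochondrial scale. The nuclear receptor genes of the list did not rise with them. RXRA (-1.20 and -0.64) and RXRB (-1.07 and -0.95) fell. NR1H3 changed by -0.61 and -0.07, and NR1H2 by 0.17 and 0.22. Of the 8 genes of SREBP signalling and cholesterol uptake, 5 rose and 2 fell in parental cells, and 5 rose and 1 fell in resistant cells, against the same shares of all genes, and on the mitochondrial scale none was higher and 8 lower, and 1 and 6. HMGCS1, an enzyme of cholesterol synthesis, rose by 0.88 and 2.12, and SQLE, a later enzyme of the pathway, fell (-2.17 and -1.73).

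ABCA7, a phospholipid transporter related to ABCA1, rose with each compound in each line. Its CPM were 12.6 and 12.1 in parental DMSO, 39 and 31.8 with JQ1 and 29.1 and 23.6 with dBET6, and 12 and 14.4, 34.9 and 34.2 and 42 and 33.9 in the resistant line, and the treated libraries all lay above the DMSO libraries of their line. The JQ1 rises were 1.52 (SE 0.13) and 1.39 (SE 0.12). The dBET6 rises were 1.09 (SE 0.13) and 1.52 (SE 0.13), which turned to -0.69 and -0.54 on the mitochondrial scale. ABCA3, the surfactant lipid transporter of lamellar bodies, had the largest JQ1 rise in both lines among members with more than 3 counts in each group, from 1.15 and 0.93 to 4.79 and 4.01 CPM (log2 fold change 2.08, SE 0.22, adjusted p = 8.60e-09) and from 2.12 and 2.58 to 7.83 and 7.52 CPM (log2 fold change 1.71, SE 0.19, adjusted p = 2.55e-08), at a low level of at most 1.4 FPKM. Its dBET6 rises were smaller (1.09 and 0.94), the parental one lost without the first parental dBET6 library (0.57 to 1.39), and they were -0.70 and -1.11 on the mitochondrial scale (the resistant one also -0.13 on the total-count scale).

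ABCA2, an endosomal sterol and lipid transporter, rose with dBET6 from 59.2 and 67 to 176 and 141 CPM in parental (log2 fold change 1.33, SE 0.10, adjusted p = 1.69e-12) and from 78.9 and 81.3 to 245 and 228 CPM in resistant cells (log2 fold change 1.56, SE 0.10, adjusted p = 4.22e-14), and did not pass the test with JQ1 (0.11 and 0.20). On the total-count scale the dBET6 changes were 0.69 and 0.49, and on the mitochondrial scale -0.46 and -0.50. ABCA5, a lysosomal lipid transporter, rose with JQ1 from 2.54 and 2.45 to 6.04 and 5.9 CPM (1.26, SE 0.18) and from 1.38 and 1.17 to 3.69 and 4.07 CPM (1.60, SE 0.20). With dBET6 it was at 1.43 and 2.02 CPM in parental and 2.89 and 2.99 CPM in resistant cells. The parental fall (log2 fold change -0.54, SE 0.22, adjusted p = 0.0309) was lost without the first parental DMSO or dBET6 library (-0.84 to -0.35) and with DESeq2 (adjusted p = 0.233), and the log2(FPKM + 1) change was 0.28 (limma, adjusted p = 0.336). The resistant rise (log2 fold change 1.20, SE 0.23, adjusted p = 3.43e-05) turned to -0.87 on the mitochondrial scale.

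ABCG1, ABCG4 and ABCG8 were close to silent in DMSO and appeared with dBET6. ABCG1, which passes cholesterol to HDL, had 5 counts in the 2 parental DMSO libraries together, 13 with JQ1 and 49 with dBET6, and 20, 18 and 71 in the resistant line. In CPM these were 0.0923 and 0.0245, 0.274 and 0.059 and 0.951 and 1.5, then 0.22 and 0.215, 0.323 and 0.158 and 2.68 and 1.99, with the dBET6 libraries above all others. The dBET6 rises were 4.28 (SE 0.62, adjusted p = 6.75e-07) and 3.40 (SE 0.48, adjusted p = 3.78e-07), positive on every scale. It reached the filter's limit in no DMSO library, in 1 JQ1 library of each line and in all 4 dBET6 libraries, so without dBET6 it would just have met the filter. ABCG8, which forms the intestinal and hepatic sterol exporter with ABCG5, went from 1 to 40 counts in parental cells, a depth-scaled ratio of 83.5 (95% interval for counting error 14.2 to 3381), and from 0 to 62 in resistant cells, at least 62-fold higher against a floor of 3 counts over the group. ABCG4, a relative of ABCG1 in brain, went from 0 to 42 counts in resistant cells, at least 42-fold higher, and from 6 to 33 in parental cells. The paired transcripts of ABCG4 recovered 0.476 of its deposited FPKM, so its counts cover part of its transcripts. Its FPKM in resistant DMSO were 0.0161 and 0.0114. ABCG8 and ABCG4 were tested only because of their dBET6 libraries, so no test of their rise is given. Even with dBET6 these transcripts stayed low, at most 1.65, 0.914 and 3.4 FPKM for ABCG1, ABCG8 and ABCG4. ABCG5 overlaps ABCG8 on the opposite strand of chromosome 2, reads of the 2 genes cannot be separated where they overlap unless the libraries kept strand, which the labels do not state, and ABCG5 reached no more than 0.19 FPKM.

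ABCC9 (SUR2), the sulfonylurea receptor subunit of potassium channels, had the largest JQ1 fall among members with more than 3 counts in each group. Its libraries gave 12.9 and 10.9 CPM in parental DMSO, 1.4 and 1.42 with JQ1 and 5.9 and 7.61 with dBET6, and 5.16 and 4.59, 1.72 and 1.47 and 5.08 and 5.36 in the resistant line. The JQ1 libraries lay at 1.40 to 1.72 CPM over both lines, and no treatment of the parental line overlapped another. The JQ1 change was -3.08 (SE 0.18, adjusted p = 8.05e-14) in parental and -1.61 (SE 0.18, adjusted p = 3.13e-08) in resistant cells, a difference of 1.47 (SE 0.26, adjusted p = 5.81e-04). In DMSO the resistant line was lower by 2.43-fold (log2 fold change -1.28, SE 0.15, adjusted p = 8.37e-08). With dBET6 it fell in parental cells (log2 fold change -0.82, SE 0.16, adjusted p = 3.35e-05) and did not pass the test in resistant cells (0.10, 95% interval -0.26 to 0.46). The other subunit gene, ABCC8, was at 0 FPKM in 8 of 12 libraries. ABCC6, a transporter with near-identical pseudogenes to which its reads may be divided, passed the test only for the lines in DMSO (2.61 and 2.54 against 4.3 and 4.02 CPM, 0.69, adjusted p = 0.00479, lost without the first resistant DMSO library, 0.63 to 0.74) and for dBET6 against JQ1 in parental cells (-0.52, adjusted p = 0.0344, lost without the second library of either group, -1.02 to -0.22).

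Among the mitochondrial transporters, ABCB10 and ABCB8 moved apart under dBET6. ABCB10, which takes part in heme synthesis in erythroid cells, fell from 24 and 26.4 to 10.9 and 11.7 CPM (log2 fold change -1.16, SE 0.11, adjusted p = 3.82e-10) and from 18.2 and 17 to 5.7 and 4.61 CPM (log2 fold change -1.78, SE 0.13, adjusted p = 1.50e-12). The dBET6 libraries of ABCB10 were below all others. ABCB8 rose from 77.8 and 90.1 to 150.0 and 124 CPM (0.71, SE 0.10) and from 66.4 and 67.9 to 139 and 139 CPM (1.05, SE 0.10), which were 0.07 and -0.02 on the total-count scale and negative on the mitochondrial scale. ABCB6, a porphyrin transporter, passed the test with dBET6 at 0.38 and 0.35, calls that were lost without single libraries (0.11 to 0.53 and 0.25 to 0.36) and negative on both other scales. With JQ1 ABCB8 rose in both lines (0.67 and 0.49, the latter -0.08 on the mitochondrial scale). Of 14 genes of heme and iron-sulfur synthesis, all tested, 4 rose and 6 fell with dBET6 in parental cells and 4 rose and 9 fell in resistant cells, against 76.3% and 75.2% of all genes called, and all 14 were lower on the mitochondrial scale.

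ABCD4, which moves vitamin B12 out of lysosomes, did not pass the test with JQ1 and fell with dBET6. Its CPM were 16.5 and 17.9 in parental DMSO, 19.7 and 18.6 with JQ1 and 6.47 and 5.07 with dBET6, and 15.7 and 16.5, 16.7 and 16.1 and 3.16 and 2.68 in the resistant line. The dBET6 falls were 2.97-fold (log2 fold change -1.57, SE 0.13, adjusted p = 1.74e-11) and 5.53-fold (log2 fold change -2.47, SE 0.15, adjusted p = 3.37e-14), with the dBET6 libraries below all others. The JQ1 changes were 0.16 (95% interval -0.07 to 0.38) and 0.03 (-0.20 to 0.26). ABCB9 (TAPL), a lysosomal peptide transporter, rose with JQ1 in parental (0.56, adjusted p = 2.62e-04) and resistant cells (0.55, adjusted p = 8.70e-04; -0.02 on the mitochondrial scale).

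Of the peroxisomal transporters, ABCD3 (PMP70), an importer of dicarboxylic and branched-chain acyl-CoA, was rebuilt from transcripts at 0.433 of its deposited FPKM, so its FPKM are given instead: 13.6 and 11.3 in parental DMSO, 20.4 and 22.9 with JQ1 and 8.19 and 11.8 with dBET6, and 14.1 and 10.6, 23.5 and 23.6 and 9.23 and 9.21 in the resistant line. With JQ1 the log2(FPKM + 1) change was 0.75 in parental (limma, adjusted p = 0.00749) and 0.89 in resistant cells (adjusted p = 0.00382), and with dBET6 it was -0.31 (adjusted p = 0.139) and -0.37 (adjusted p = 0.0771). ABCD2 was under the limit of the test. Of 14 peroxisome assembly genes, 7 fell and 4 rose with dBET6 in parental cells and 9 fell and 3 rose in resistant cells, against 39.3% lower and 37.0% higher, and 39.5% and 35.7%, of all genes (all 14 were lower on the mitochondrial scale), with PEX14, part of the import pore, at -3.49 and -3.34.

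The 4 ribosome-associated members, which are not transporters, include ABCE1, the member with the largest fall with dBET6 against DMSO in each line. ABCE1 splits ribosomes for recycling after termination, and its gene lies on the plus strand of chromosome 4. Its level was 103 and 87.2 CPM in parental DMSO, 57.8 and 66.2 with JQ1 and 16.3 and 17.2 with dBET6, and 63.1 and 57.8, 54.4 and 49.6 and 7.69 and 6.79 in the resistant line. dBET6 lowered it 5.67-fold in parental (log2 fold change -2.5, SE 0.11, adjusted p = 1.79e-17) and 8.36-fold in resistant cells (log2 fold change -3.06, SE 0.12, adjusted p = 3.57e-18), with no overlap between libraries. JQ1 lowered it in parental cells (log2 fold change -0.62, SE 0.10, adjusted p = 4.72e-06), and in resistant cells the JQ1 libraries lay below the DMSO libraries without passing the test (-0.22, adjusted p = 0.0674). Among its partners on the ribosome, PELO, which acts with ABCE1 on stalled ribosomes, fell (log2 fold changes -2.62 and -2.48), as did EIF3J, which binds recycled small subunits (-2.25 and -2.63), whereas the release factor ETF1 changed by 0.42 and 0.60. Of the 7 partners listed, 3 fell and 2 rose in parental, and 5 fell and 2 rose in resistant cells, against 76.3% and 75.2% of all genes called, and all 7 were lower on the total-count and mitochondrial scales.

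The ABCF proteins, which act in translation initiation and on translating ribosomes, changed less and not in step. ABCF1 fell with dBET6 from 92.6 and 90.4 to 53.9 and 44.9 CPM (-0.89, SE 0.09) and from 70.6 and 70.9 to 36.3 and 35.5 CPM (-0.98, SE 0.09). ABCF2 fell with both compounds in both lines, with changes of -0.52 and -0.40 with JQ1 and -0.47 and -0.51 with dBET6 (SE 0.09 each). ABCF3 rose with JQ1 from 75.6 and 82.4 to 132 and 127 CPM (log2 fold change 0.71, SE 0.09, adjusted p = 1.30e-07) and from 73.8 and 77.2 to 104 and 110.1 CPM (log2 fold change 0.50, SE 0.09, adjusted p = 3.14e-05; -0.07 on the mitochondrial scale). With dBET6 it overlapped DMSO in parental cells (85 and 74.1 CPM, 0.01, 95% interval -0.17 to 0.19) and fell in resistant cells (58 and 52.3 CPM, log2 fold change -0.45, SE 0.09, adjusted p = 7.28e-05), which the deposited FPKM did not show (-0.08 on the log2(FPKM + 1) scale, adjusted p = 0.504).

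In DMSO the lines differed in a part of the family. Resistant cells had more transcript of ABCA13, ABCC10 and ABCC4 and less of ABCC9, ABCB9, ABCE1 and ABCB6. Of 35 members, 20 passed the test (11 higher and 9 lower in the resistant line), against 38.5% of all genes (17.4% and 21.2%), and all 20 kept their direction on every scale. The median change was 0.01, as over all genes (0.00). On the mitochondrial scale 4 members were called higher and 9 lower, where 19.4% of all called genes were higher. Leaving out single libraries gave 14 to 22 calls, and 12 of the 20 held each time. The 20 include ABCA4 and ABCG4, which needed dBET6 libraries to meet the filter, as did ABCA8 and ABCG8. Without these 4 members the counts were 10 higher and 8 lower of 31. Of the drug transporters, 4 were higher in resistant cells and none was lower, but the differences were small. ABCC10 was higher by 0.59 (adjusted p = 4.73e-05), ABCC5 by 0.43 (adjusted p = 3.10e-04), ABCC4 by 0.48 (adjusted p = 0.00607) and ABCC3 by 0.27 (adjusted p = 0.0406). The ABCC4 call was lost without the second parental or the first resistant DMSO library (0.30 to 0.67), and the ABCC3 call without the first parental DMSO, either resistant DMSO or either resistant JQ1 library (0.15 to 0.39). ABCC1 (-0.21, adjusted p = 0.0723), ABCG2 (-0.08, adjusted p = 0.674) and ABCC2 (-0.21, adjusted p = 0.0502) did not pass.

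ABCA13, the longest member of the family, showed the largest difference between the lines among members with more than 3 counts in each group. Its level was 1.15 and 0.734 CPM in parental and 9.17 and 8.13 CPM in resistant DMSO libraries, and JQ1 lowered it 2.18-fold in parental (0.424 and 0.442 CPM) and 2.4-fold in resistant cells (3.45 and 3.76 CPM). The line difference was 9.1-fold (log2 fold change 3.19, SE 0.22, adjusted p = 5.82e-12). The parental JQ1 fall (log2 fold change -1.12, SE 0.32, adjusted p = 0.00519) was lost without the first parental DMSO library (-1.41 to -0.76), while the resistant fall (log2 fold change -1.26, SE 0.19, adjusted p = 3.46e-06) was not lost without any single library. Its highest level was 1.3 FPKM. ABCA3 was higher in resistant cells by 1.16 (SE 0.23), and ABCB9 was lower by 2.28-fold (13.3 and 15.1 against 6.16 and 6.29 CPM, log2 fold change -1.19, SE 0.12, adjusted p = 1.41e-08). ABCB6 (-0.72), ABCE1 (-0.65) and ABCB10 (-0.52) were lower in the resistant line with adjusted p of 3.29e-05, 3.32e-06 and 1.93e-04. ABCA4 had 18 counts in resistant and 1 in parental DMSO, a ratio of 16.5 (counting interval 2.61 to 688), and reached the filter's limit in 1 resistant DMSO and no parental DMSO library. It was not called by DESeq2 (adjusted p = 0.0964) or without the second parental or first resistant DMSO library.

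At 1000 nM the compounds were compared directly. dBET6 gave less transcript than JQ1 for 18 and more for 10 of 35 members in parental cells (28 calls, against 74.6% of all genes, 36.2% higher and 38.4% lower, median -0.32 beside 0.00) and less for 12 and more for 12 in resistant cells (24 calls, against 74.2%, 35.4% and 38.8%, median 0.09 beside -0.03). ABCA4, ABCA8, ABCG4 and ABCG8 needed dBET6 libraries to meet the filter. Without them the counts were 6 higher and 18 lower of 31 in parental and 9 and 12 in resistant cells. On the total-count scale the split of all members was 8 higher and 22 lower in parental and 6 and 22 in resistant cells, where 32.9% and 26.2% of all called genes were higher. On the mitochondrial scale it was 4 and 24, and 3 and 25, beside 13.1% and 14.3%. After ABCC10, ABCE1 was furthest below its JQ1 level (-1.89 and -2.85), and ABCD4 (-1.72 and -2.5), ABCF1 (-0.91 and -1.21) and ABCF3 (-0.70 and -0.95) were lower in both lines too. ABCC9 (2.26 and 1.71) and ABCC3 (1.67 and 1.52) were above it in both lines, ABCC3 by 0.22 and 0.03 on the mitochondrial scale. For ABCF2 the compounds did not differ past the threshold (0.05, 95% interval -0.14 to 0.23, in parental and -0.11, -0.29 to 0.08, in resistant cells). ABCA1 was lower with dBET6 than with JQ1 in parental (-1.09, SE 0.08) and higher in resistant cells (0.41, SE 0.08), the latter -0.47 on the total-count and -1.08 on the mitochondrial scale.

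The test of the difference in response between the lines called 4 members for JQ1 (2 with a more positive and 2 with a more negative response in resistant cells, against 6.50% of all genes, 3.62% and 2.88%) and 14 for dBET6 (7 and 7, against 27.9%, 13.7% and 14.2%). Without ABCA4, ABCA8, ABCG4 and ABCG8, which needed dBET6 libraries to meet the filter, the dBET6 calls were 6 and 7 of 31. For JQ1 the calls included ABCC9 and ABCC3, whose falls were smaller or absent in resistant cells, and ABCC2. The ABCC3 difference (0.55) was lost without any of 6 single libraries (0.41 to 0.72). For dBET6, the differences among members with more than 3 counts in each group included, in order of size, ABCA5 (1.73), ABCA1 (1.45), ABCC4 (-1.26), ABCC10 (-1.07), ABCA13 (-0.98), ABCC9 (0.92) and ABCD4 (-0.90). ABCC4, ABCC10, ABCD4, ABCE1 (-0.56) and ABCB10 (-0.61) thus fell further in resistant cells. The ABCC4 counts cover part of its transcripts. Its mean FPKM went from 9.83 to 5.41 in parental and from 13.7 to 4.88 in resistant cells. The differences of ABCA13 (-1.36 to -0.41 over left-out libraries), ABCE1 (-0.68 to -0.44, lost without the second parental DMSO, first resistant DMSO or second resistant dBET6 library) and ABCB10 (-0.77 to -0.45, lost without the first resistant DMSO or second resistant dBET6 library) were not called in every such fit, and that of ABCA13 was lost without any of 6 libraries. On the total-count scale the split of the dBET6 differences became 3 and 14, and on the mitochondrial scale 3 and 6, where 12.2% and 14.2% of all called genes were positive. Without the first resistant DMSO library 9 differences were called for dBET6.

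**Figure D4:**
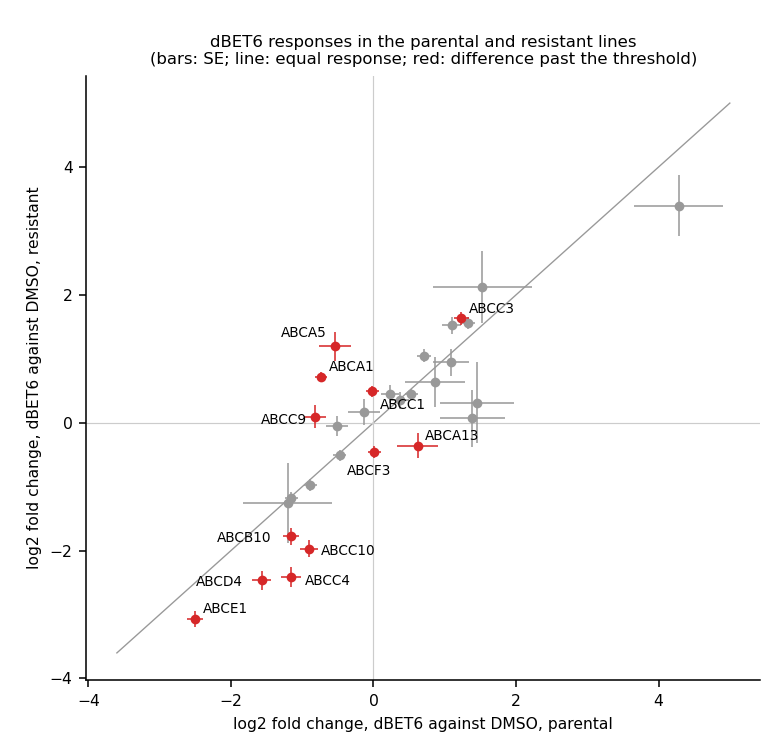
Log2 fold change with dBET6 against DMSO in parental (x axis) and resistant cells (y axis) for tested members with more than 3 counts in each of the 4 groups. Bars are standard errors, the diagonal marks equal responses and red points differ between the lines past the threshold. ABCA1 and ABCA5 lie in the upper left, lowered in parental and raised in resistant cells on the TMM scale (the rises turn negative on the mitochondrial scale, and that of ABCA1 also on the total-count scale), and ABCE1, ABCD4, ABCC4 and ABCC10 lie below the diagonal. The parental fall of ABCA5 was not called with DESeq2 and not shown by the deposited FPKM.

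For some members the mix of transcripts shifted with dBET6 as well, which separates counts from per-length values. The mean length of the transcripts assigned to ABCA5, weighted by their TPM, was 2589 and 2636 bases in parental DMSO and 1845 and 1124 with dBET6, and 1738 and 2246 and 1032 and 973 in the resistant line. A transcript of 631 bases took 77.3% and 74.1% of ABCA5 TPM in the resistant dBET6 libraries, against 52.2% and 21.6% in resistant DMSO and 26.9% and 18.0% in parental DMSO. In the parental dBET6 libraries its share was 27.0% and 61.3%, the first at the level of DMSO. For ABCC1 the mean length fell from 4737 and 5277 to 3209 and 3752 bases in parental and from 5007 and 4383 to 3011 and 3407 bases in resistant cells, while the share of its 6552-base transcript went from 59.3% and 76.5% to 36.1% and 50.4%, and from 72.3% and 62.3% to 32.6% and 39.8%. ABCA2 and ABCC3 moved the other way. ABCA2 lengthened from 4331 and 4581 to 6186 and 6998 bases and from 3864 and 3756 to 6526 and 6277 bases, and ABCC3 from 2461 and 2317 to 3623 and 3213 and from 2189.8 and 1989 to 2965 and 2980.1 bases. In all 4 genes the dBET6 libraries did not overlap the DMSO libraries of their line. This is not particular to them, since it also held for other members, ABCC2, ABCC5 and ABCF1 among them. The share of genes with such a gap was not computed. No test was run on these lengths, which rest on the division of reads among overlapping transcripts.

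**Figure D5:**
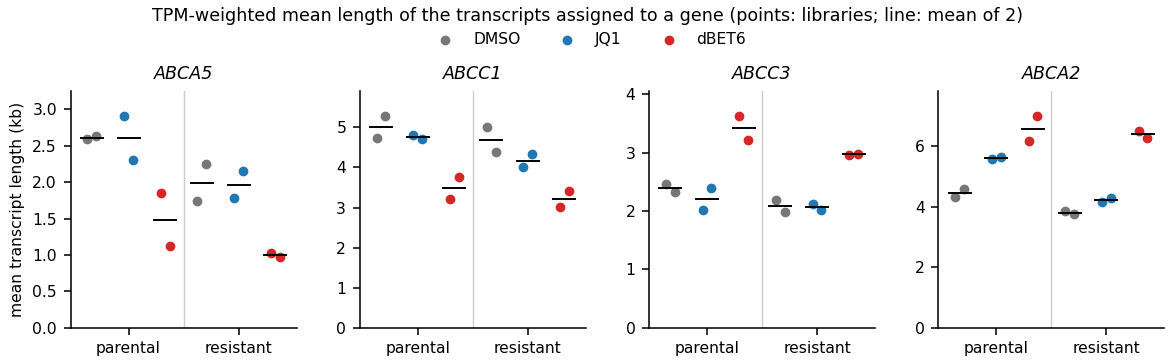
TPM-weighted mean length in kilobases (y axis, from 0) of the transcripts assigned to ABCA5, ABCC1, ABCC3 and ABCA2 in each library, by line and treatment (x axis). Points are libraries and black lines the means of 2. With dBET6 the mean is shorter for ABCA5 and ABCC1 and longer for ABCC3 and ABCA2 than in the DMSO libraries of the same line.

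Several members are neighbours in the genome (GENCODE 29, GRCh38), and their responses are set side by side here. ABCA8, ABCA9, ABCA6, ABCA10 and ABCA5 lie in a row on the minus strand of chromosome 17, from 68867292 to 69327244. Of them ABCA5 rose with JQ1 in both lines, and with dBET6 it fell in parental and rose in resistant cells. Its parental fall was not called with DESeq2 and not shown by the deposited FPKM. ABCA6 rose with dBET6 in parental cells, from 0.277 and 0.269 to 0.618 and 0.829 CPM. These dBET6 rises of ABCA5 and ABCA6 turned negative on the mitochondrial scale. ABCA8 stood at 0.115 and 0.122 CPM in parental DMSO and 0.19 and 0.518 with dBET6. In the resistant line it stood at 0.24 and 0.167 CPM with DMSO and 0.756 and 1.06 with dBET6. It was tested only through dBET6 libraries, so no test is given. ABCA9 passed no test in any comparison and ABCA10 was not tested. ABCC1 and ABCC6 stand 5.9 kb apart on chromosome 16, ABCC1 at 15949577 to 16143074 and ABCC6 at 16148928 to 16223522, and JQ1 raised ABCC1 in both lines while ABCC6 gave 0.39 and -0.20 (adjusted p = 0.107 and 0.421). ABCC5 and ABCF3 are 168.0 kb apart on chromosome 3 and both rose with JQ1, and ABCB8 and ABCF2 are 164.7 kb apart on chromosome 7 and moved in opposite directions with JQ1 in both lines.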

How the data were processed

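RNA was sequenced from polyA libraries of U87 cells in 6 groups of 2. Per the submitters' processing notes, the authors used kallisto, DESeq2 and hg19, with no versions given. Each library's file holds the estimated counts and TPM per transcript that the authors deposited, and 1 series table holds their deposited FPKM per gene, whose construction is not given in the sources used here. Transcripts were paired with genes through GENCODE 29 (92.1% of 196354 transcripts, 94.7% to 96.2% of counts). In 82.0% of 10511 genes checked, the summed values matched the deposited FPKM within 1%, but ABCD3, ABCC4 and ABCG4 were rebuilt at 0.433, 0.641 and 0.476 of it. ABCA4, ABCF2 and ABCC1 were rebuilt at 0.726, 0.830 and 0.940, so their counts cover part of their transcripts too. Summed counts were rounded, filtered with filterByExpr, scaled by TMM and tested with edgeR 4.0.16 (quasi-likelihood, R 4.3.3, all 12 libraries in 1 fit, Benjamini-Hochberg over 19093 genes, threshold 0.05). The fit left 6 residual degrees of freedom, and the biological coefficient of variation was 7.88%. limma 3.58.1 on log2(FPKM + 1), DESeq2 1.42.0, other scalings, filters, pseudocounts and left-out libraries were alternatives. Comparisons within 1 line share control libraries. Intervals of count ratios cover counting error only. The members, lists, tests and named genes were chosen with earlier results of these data known. Members past the threshold without overlap between groups were described, at most 8 in each direction, with ABCA1, ABCB1, ABCC1, ABCC3, ABCG1, ABCG2, ABCE1 and ABCF1 to ABCF3. Results of 2 members and of some list genes that this rule names are not reported here, though the counts include them. Of other lists, at most 4 genes with the smallest p were named, and the nuclear receptor genes of the LXR list were added to these. The test was tested on simulated data for each comparison. Of simulated 1.5-fold changes, it recovered 41.8% to 50.7% between groups and 19.4% (JQ1) and 23.9% (dBET6) for differences between lines. A change of that size that did not pass may thus have been missed. Between 1.54% and 6.62% of its calls were false.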

Additional observations from a re-analysis of the deposited data

Results flagged for a closer look

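The responses listed here were picked out because a test of the difference between the resistant and the parental line passed an adjusted p of 0.05 (edgeR). Each value is the log2 response in resistant cells minus that in parental cells. For JQ1 the difference was 1.47 for ABCC9, 0.55 for ABCC3 and -0.63 for ABCC2. For dBET6 the positive differences were 1.73 for ABCA5, 1.45 for ABCA1, 0.92 for ABCC9, 0.51 for ABCC1 and 0.40 for ABCC3. The negative ones were -1.26 for ABCC4, -1.07 for ABCC10, -0.98 for ABCA13, -0.90 for ABCD4, -0.61 for ABCB10, -0.56 for ABCE1 and -0.46 for ABCF3. The counts behind the ABCC4 value cover part of its transcripts. The fitted difference for ABCG4 was 5.05, but resistant DMSO held 0 counts of its paired transcripts and it was tested only through its dBET6 libraries, so this value is no bound on the size.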

How the results depend on the processing

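Of 3828 alternative values for 166 values of named members, 3474 kept their direction and side of the threshold, 283 lost the call, 30 gained it and 41 changed sign; the causes were not tested. Without single libraries the calls numbered 19 to 22 (JQ1) and 26 to 28 (dBET6) in parental cells, 16 to 21 and 24 to 28 in resistant cells, 14 to 22 between the lines, 22 to 30 and 22 to 26 for dBET6 against JQ1 in parental and resistant cells, and 3 to 6 (JQ1) and 9 to 15 (dBET6) for differences between lines. Counts that moved by over 1.5 times were as follows. With limma on FPKM and no filter there were 13 (JQ1, parental), 11 (JQ1, resistant), 9 (lines), 0 (JQ1 difference) and 3 (dBET6 difference). With the filter they were 9, 0 and 5 for the last 3 at either pseudocount, and 14 (parental) and 15 or 14 (resistant, pseudocount 1 or 0.1) for dBET6 against JQ1. For the JQ1 difference, limma had 2 members (4 with no filter) at an unadjusted p under 0.05, and DESeq2 called 4. A fold of at least 1.5 left 7, 8, 5, 1 and 4 of the first 5, and 18 for dBET6 against JQ1 in parental cells. A 10 CPM minimum left 12 (lines) and 16 (dBET6 against JQ1, parental), and the mitochondrial scale 13 (lines), 1 and 9 (differences).

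Of all members called with dBET6, 11 of 14 rises in parental and 12 of 16 in resistant cells changed sign on another scale. Among the values counted above, signs changed on the mitochondrial scale for dBET6 in parental cells (ABCA2 -0.46, ABCC3 -0.55, ABCC11 -0.28, ABCA8 -0.19, ABCA6 -0.36, ABCF3 -1.77), JQ1 in resistant cells (ABCC1 -0.012, ABCB6 -0.069, ABCB9 -0.023, ABCF3 -0.072, ABCA1 -0.28, ABCF1 -0.34), dBET6 in resistant cells (ABCA7 -0.54, ABCA2 -0.50, ABCC3 -0.43, ABCC1 -1.57, ABCA1 -1.36) and dBET6 against JQ1 (parental ABCF2 -1.42, ABCA2 -0.25, ABCG2 -1.06, resistant ABCA2 -0.13, ABCG2 -1.05, ABCA1 -1.08, ABCA13 -0.59). They changed on the total-count scale for ABCF3 -0.63 (dBET6, parental), ABCC1 -0.59 and ABCA1 -0.36 (dBET6, resistant), ABCF2 -0.47 and ABCG2 -0.088 (dBET6 against JQ1, parental), ABCG2 -0.45 and ABCA1 -0.47 (the same, resistant) and ABCC3 -0.037 (dBET6 difference). ABCC1 with dBET6 in parental cells became 0.35 at 10 CPM, 0.51 on FPKM with or without the filter and 0.54 at a pseudocount of 0.1, and against JQ1 0.031 on all 3 FPKM settings. At 10 CPM ABCF2 and ABCC1 became 0.30 and 0.33 for dBET6 against JQ1 in resistant cells.

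Replicate numbers did not pair the libraries (correlations of same-numbered deviations -0.15 to 0.11). With the replicate number as a block, 165 of 166 values kept their call and the parental dBET6 rise of ABCA8 lost it.

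Depth limits ABCB1 and the 9 other untested members, and 2 libraries per group of 1 resistant line limit every comparison.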
